A study of Mus musculus with 12 samples.

Results

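The comparison described here is that of 6-gingerol at 30 µM plus lipopolysaccharide (LPS) with LPS alone in the mouse microglial line BV2, which is immortalized. It rests on 4 of the 12 RNA-sequencing libraries of the study, 2 in each group, chosen by their treatment label, and on the 12705 of 43432 listed genes that passed a filter on low counts. The LPS group received 100 ng/mL LPS, and the other group received 30 µM 6-gingerol 1 h before the same LPS dose. Every group, the untreated one included, was moved to medium without serum 24 h after seeding and kept there for 4 h or more before any treatment. The remaining groups were untreated cells, 6-gingerol at 10 µM plus LPS, and 6-shogaol at 10 or 30 µM plus LPS, each with 2 libraries. The labels give neither the time from LPS to harvest nor a solvent control for the LPS group, and do not say that the replicates were separate cultures, so the p-values measure only the spread between these libraries. BV2 is 1 line, and each library pools the cells of a culture, so fewer responding cells and less RNA per cell cannot be told apart.

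LPS is the outer membrane glycolipid of Gram-negative bacteria. On macrophages and microglia it is handed by CD14 to the receptor TLR4 and its partner MD-2. One signalling arm, through MyD88, activates NF-κB and AP-1 and turns on cytokine and chemokine genes, and another, through TRIF and IRF3, leads to type I interferon and then to interferon-stimulated genes. 6-Gingerol is the main pungent phenol of fresh ginger, and 6-shogaol is its dehydration product, which is enriched in dried ginger.

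Total expected counts in the 4 libraries ran from 16906954 to 21179867, and 15646 to 15979 genes had at least 1 count. The mean fragment length was 237.0 and 223.0 bases with LPS and 249.2 and 223.1 bases with 6-gingerol 30 µM plus LPS. Among 13 markers of microglia and macrophages, Csf1r, Itgam, Ptprc, Spi1 and Tyrobp were abundant, whereas Sall1 was at 0 and C1qa and P2ry12 stayed under 1 CPM (counts per library total, here without and elsewhere with TMM scaling), so several defining markers of resting microglia in tissue were absent or nearly so. The summed level of these markers was 1484 to 1490 CPM with LPS and 1449 to 1534 CPM with 6-gingerol. Of 32 markers of other cell types (neurons, glia, fibroblasts, endothelium and blood leukocytes) 24 were under 1 CPM in all 4 libraries. The 8 others included Kdr, a receptor of vascular endothelial growth factor, at 123 to 144 CPM, the connexin gene Gja1 at 13.3 to 16.3 CPM and the myelin enzyme gene Cnp at 10.8 to 15.2 CPM, and the other 5 reached at most 2.96 CPM. The endothelial genes Pecam1 and Cdh5 were under 1 CPM.

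Several of the LPS-induced genes with the lowest values after 6-gingerol were cytokine or interferon-stimulated genes. The 250 bases before the start site are shown for Il6, which had the largest difference among well-expressed LPS-induced genes. They are also shown for Fpr1 and Gbp2, the next such genes whose start site in the promoter table lay near the gene start in the annotation (1 and 61 bases inside it). Mir155hg ranked between them and Il6, but its start site in the table lay 9856 bases inside the annotated gene, so its window is not shown. The sequences are from RefSeq on GRCm38.p6, written 5′ to 3′ on the gene's strand. Capitals mark matches, on either strand, to a κB site, an AP-1 site (TGANTCA), an interferon-stimulated response element (GAAANNGAAA) or a TATA box (TATAAA). The windows are chr5:30012864-30013113 on the plus strand for Il6, chr17:17883940-17884189 on the minus strand for Fpr1, and chr3:142620413-142620662 on the plus strand for Gbp2.
Il6: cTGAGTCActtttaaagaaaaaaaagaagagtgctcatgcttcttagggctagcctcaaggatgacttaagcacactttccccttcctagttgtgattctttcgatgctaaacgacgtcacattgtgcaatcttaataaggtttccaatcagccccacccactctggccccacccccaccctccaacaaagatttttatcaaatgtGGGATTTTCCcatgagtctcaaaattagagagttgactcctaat
Fpr1: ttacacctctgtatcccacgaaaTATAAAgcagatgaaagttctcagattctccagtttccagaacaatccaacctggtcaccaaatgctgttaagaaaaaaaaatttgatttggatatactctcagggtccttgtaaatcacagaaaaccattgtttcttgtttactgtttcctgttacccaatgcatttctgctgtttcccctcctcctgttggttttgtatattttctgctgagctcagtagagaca
Gbp2: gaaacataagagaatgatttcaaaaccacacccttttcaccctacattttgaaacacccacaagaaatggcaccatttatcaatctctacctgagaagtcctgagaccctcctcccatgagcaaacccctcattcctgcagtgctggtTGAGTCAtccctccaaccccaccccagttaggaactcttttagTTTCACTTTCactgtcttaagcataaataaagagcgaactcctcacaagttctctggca
The Il6 window held an AP-1 match whose first base lay 249 bases before the start site and a κB match at 44 bases before it. The Gbp2 window held an AP-1 match at 102 bases and an interferon response element, read on the opposite strand, at 59 bases before the start site. The Fpr1 window held only TATAAA letters at 227 bases before the start. Over windows reaching 50 bases past the start site as well, the κB motif was present in 5.1%, the interferon element in 4.0%, the AP-1 motif in 9.0% and TATAAA in 15.7% of all 27025 promoters of the table. Among the 9427 promoters of the genes tested, from which the induced genes come, the shares were 6.1%, 3.8%, 6.1% and 8.3% in that order. For the 257 of 349 LPS-induced genes with a promoter entry these shares were 10.5%, 11.3%, 15.6% and 14.8%. Of the 16 LPS-induced genes with the lowest values described below, 14 had an entry, that of Mir155hg included. The interferon element was in 4 of these (Gbp2, Gbp3, Ifi211 and Ifit1), the AP-1 motif in 3 (Il6, Gbp2 and Il1a), the κB motif in 1 (Il6) and TATAAA in 5. In that order the shares of the 14 were 28.6%, 21.4%, 7.1% and 35.7%. The κB share was near the 6.1% of the genes tested. All of these counts are letter matches in 1 window per gene and not measured binding.

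No gene passed an adjusted p of 0.05 between 6-gingerol 30 µM plus LPS and LPS in edgeR's quasi-likelihood test, 0% of the 12705 genes tested. At an unadjusted p under 0.05 there were 189 genes (1.49%), of which 112 were lower with 6-gingerol. This share is below the rate that the threshold itself would give if no gene differed. With the 4 libraries fitted alone, 376 of 12329 genes had such a p in edgeR and 5 were called. DESeq2 called 2 genes, Il6 and mt-Nd3, both lower. The median half-width of the 95% interval of a gene's log2 difference was 0.29 over all genes and 0.39 over the LPS-induced genes defined below. Most shifts smaller than that could not be resolved for a gene taken alone. The remaining description therefore ranks genes by the size of the difference and by whether both 6-gingerol libraries lay on the same side of both LPS libraries (called non-overlapping below). Over all genes tested, 15% were non-overlapping and lower and 14.7% non-overlapping and higher.

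Il6, which encodes interleukin-6, a major cytokine of the acute phase response, had the smallest p-value of all genes tested. It was at 212 and 194 CPM in the LPS libraries and at 101 and 118 CPM after 6-gingerol 30 µM plus LPS, against 9.75 and 6.33 CPM in untreated cells. Both 6-gingerol libraries lay below both LPS libraries. The log2 difference was -0.89 (SE 0.15, 95% interval -1.22 to -0.57), with an unadjusted p of 2.98e-05 and an edgeR adjusted p of 0.378. Il6 was called with DESeq2 (adjusted p = 6.58e-05), when the 4 libraries were fitted alone (adjusted p = 3.46e-05) and when the untreated libraries were left out (adjusted p = 0.00939). In the other settings that kept all 12 libraries, the adjusted p was 8.47e-11 without a count filter and otherwise ran from 0.134 (edgeR with fragment length as a covariate) to 1 (limma on the authors' deposited table), so the call depends on the setting. The difference itself lay between -1.01 and -0.78 when any one of the 4 libraries was left out.

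Csf3, the gene of granulocyte colony-stimulating factor, had the largest log2 difference among the genes of this section but at a low level. It was at 3.45 and 4.67 CPM with LPS and at 1.76 and 1.06 CPM after 6-gingerol. The groups did not overlap, and the log2 difference was -1.53 (SE 0.37, edgeR adjusted p = 1.00). It was called when the 4 libraries were fitted alone (edgeR adjusted p = 0.0418). Il1a, the alarmin cytokine interleukin-1α, was at 89.8 and 88.1 CPM with LPS and at 62.5 and 75.3 CPM after 6-gingerol, a log2 difference of -0.37. Tnf, the tumour necrosis factor gene, was at 144 and 155 CPM against 134 and 137 CPM, a log2 difference of -0.14 with an interval of -0.33 to 0.04. On the TPM scale the Tnf groups overlapped at 98.4 and 111 TPM against 104 and 98.3 TPM. That scale divides counts by effective transcript length and then sets the same sum in every library. Il1b stayed near 1 CPM in all 4 libraries and its groups overlapped. Csf1, the macrophage growth factor gene, was the one listed cytokine that was non-overlapping and higher, at 175 and 178 CPM against 208 and 189 CPM.

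**Figure D1:**
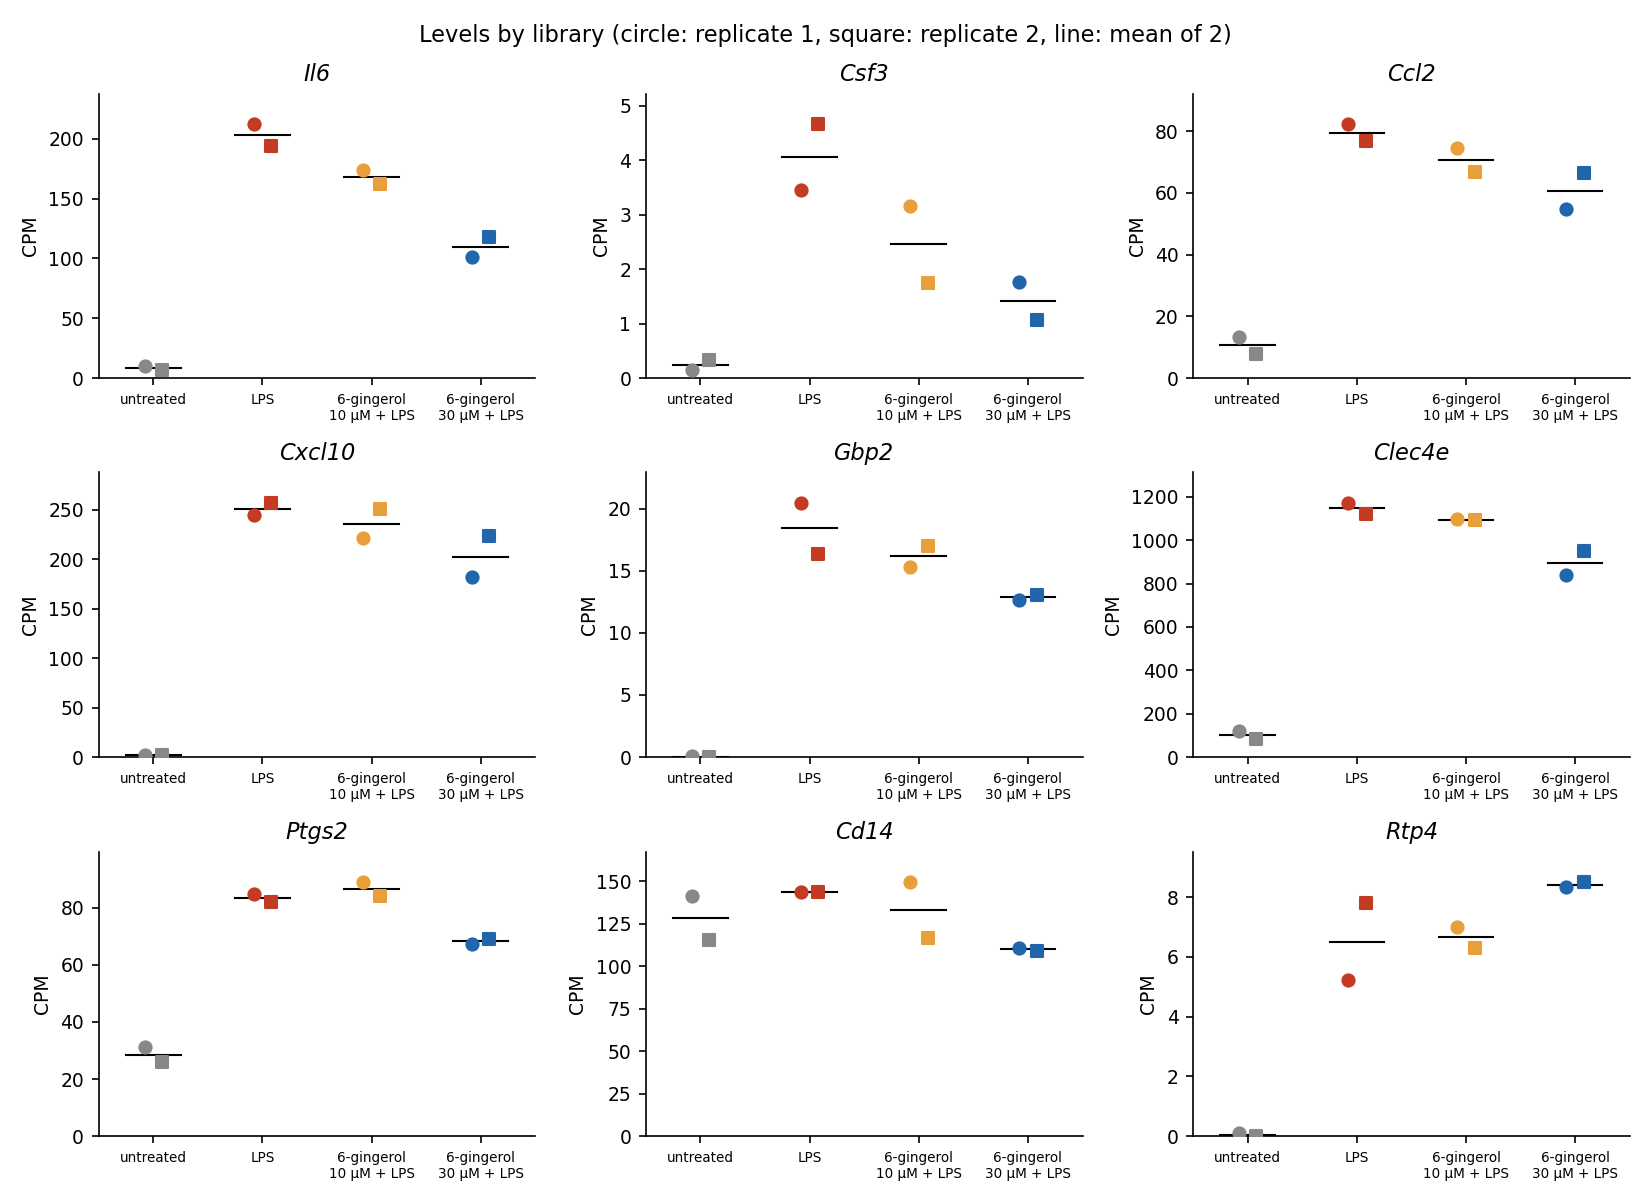
Levels of 9 genes in CPM (vertical axis, from 0) in untreated, LPS, 6-gingerol 10 µM plus LPS and 6-gingerol 30 µM plus LPS libraries; each point is 1 library and the line is the mean of 2. In the 30 µM libraries Il6 lies at 101 and 118 CPM, below the 194 to 212 CPM of LPS, and Rtp4 lies above both LPS libraries.

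The 14 measured members of the secreted cytokine list had a median log2 difference of -0.128, beside 0.001 for all genes. Of these, 7 were non-overlapping and lower and 1 was higher, beside 15% and 14.7% of all genes. No member was called by edgeR. The 12 measured chemokine genes, which attract leukocytes, had a median of -0.24, with 7 lower and 1 higher. Ccl2, the monocyte attractant, was at 82.3 and 76.7 CPM with LPS and at 54.8 and 66.4 CPM after 6-gingerol, a log2 difference of -0.39 (SE 0.16). Cxcl10, an interferon-inducible attractant of T cells, was at 245 and 257 CPM against 182 and 224 CPM, a log2 difference of -0.31. Ccrl2, a chemerin-binding receptor placed in this list, was lower by a similar amount, at 67.1 and 72.6 CPM against 52.5 and 59.9 CPM. Ccl5 overlapped, because the second 6-gingerol library (263 CPM) lay between the LPS libraries (246 and 289 CPM) while the other was at 190.2 CPM.

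The inflammatory enzymes and effectors had the highest share of lower members among the lists. Of their 26 measured members 17 were non-overlapping and lower and none was higher, against 15% and 14.7% of all genes, with a median of -0.182 and no member called by edgeR. Ptgs2, the inducible cyclooxygenase that makes prostaglandins, was at 84.7 and 81.9 CPM with LPS and at 67.4 and 69.1 CPM after 6-gingerol. Its log2 difference was -0.29 (95% interval -0.50 to -0.07). Cfb, complement factor B, was at 261 and 267 CPM against 226 and 218 CPM (log2 difference -0.25). Saa3, an acute phase apolipoprotein and the most abundant of the genes named here per unit length, was at 13290 and 14080 CPM against 11100 and 12280 CPM (log2 difference -0.23). Acod1, which makes itaconate, differed by -0.15, and Nos2, the inducible nitric oxide synthase, overlapped at 197 and 186 CPM against 190.1 and 161 CPM. Fpr1, the formyl peptide receptor, was at 7.63 and 9.81 CPM with LPS and at 5.95 and 6.02 CPM after 6-gingerol (log2 difference -0.55).

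Several further LPS-induced genes outside these families were among the 16 lowest. Clec4e encodes Mincle, a C-type lectin receptor for mycobacterial glycolipids. It was at 1172 and 1122 CPM with LPS and at 842 and 952 CPM after 6-gingerol, a log2 difference of -0.35 (SE 0.14). Wfdc21 and Wfdc17, secreted proteins with whey acidic protein domains, differed by -0.66 and -0.34. Mir155hg, the host transcript of the inflammatory microRNA miR-155, was at 4.84 and 7.81 CPM against 3.10 and 4.71 CPM, so its groups were separated by very little. Id3, an inhibitor of helix-loop-helix transcription factors, was at 24.0 and 21.6 CPM against 16.8 and 17.5 CPM (log2 difference -0.41, SE 0.12). Traf1, an NF-κB target that binds TNF receptor complexes, was at 40.6 and 40.1 CPM against 33.3 and 29.3 CPM (log2 difference -0.37). Cdc42ep2, an effector of the small GTPase CDC42, and Kcnf1, a silent potassium channel subunit, differed by -0.38 and -0.34.

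Interferon-stimulated genes leaned lower than with LPS, with exceptions. Of 34 measured members of the list, 12 (35.3%) were non-overlapping and lower and 2 (5.9%) were higher, beside 15% and 14.7% of all genes. The median was -0.074 and none was called by edgeR. Of the 34, 24 were in the LPS-induced class described below, whose shares were 35.5% and 9.7% and whose median was -0.089. The lean was therefore about that of LPS-induced genes in general. Gbp2, a guanylate-binding protein active against intracellular pathogens, was at 20.5 and 16.4 CPM with LPS and at 12.7 and 13.1 CPM after 6-gingerol, a log2 difference of -0.51 (SE 0.16, 95% interval -0.85 to -0.17). Its neighbour in the family, Gbp3, differed by -0.34, the translation inhibitor Ifit1 by -0.40 and the PYHIN family member Ifi211 by -0.38. The 2 members on the other side were Rtp4, an interferon-induced chaperone of receptor transport, and Irgm2, an immunity-related GTPase. Rtp4 was at 5.21 and 7.81 CPM with LPS and at 8.33 and 8.50 CPM after 6-gingerol (log2 difference 0.36, interval -0.10 to 0.82), and Irgm2 differed by 0.20.

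Among LPS-induced genes with a mean of at least 5 CPM, the others with the highest non-overlapping values were mostly low in level. Ip6k3, an inositol hexakisphosphate kinase, was at 4.42 and 5.66 CPM with LPS and at 7.82 and 7.44 CPM after 6-gingerol. Its log2 difference was 0.59 (SE 0.17, unadjusted p = 0.00372, edgeR adjusted p = 1.00). Zmynd15 differed by 0.47, the non-classical MHC gene H2-T24 by 0.27, the costimulatory ligand Icosl by 0.23 and malic enzyme Me1 by 0.17. The intervals of these 4 included 0.

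**Figure D2:**
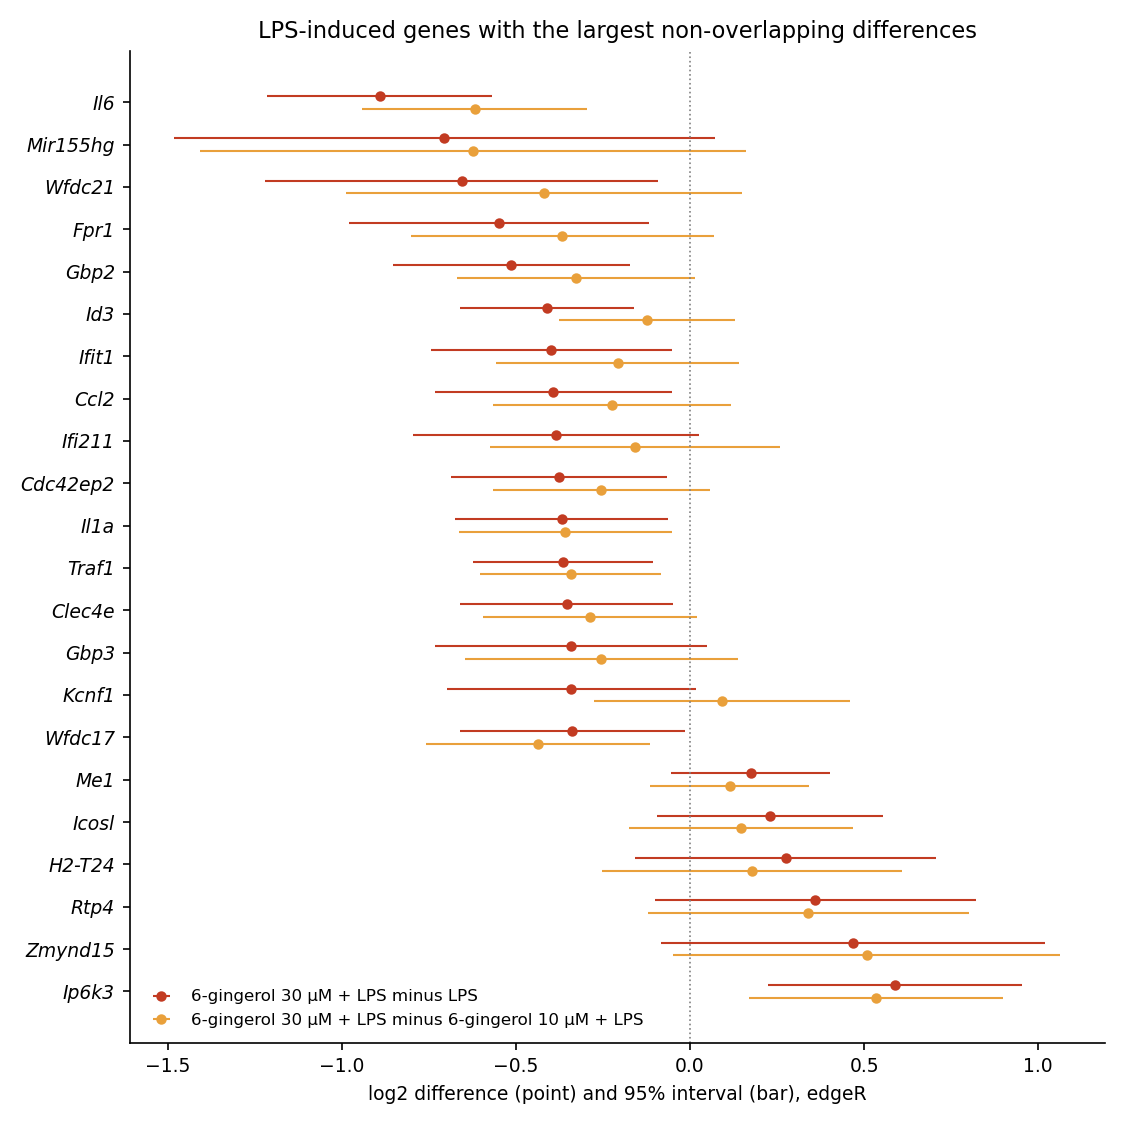
Log2 differences (points) with 95% intervals (bars) of the 16 lowest and 6 highest non-overlapping LPS-induced genes with a mean of at least 5 CPM; red is 6-gingerol 30 µM plus LPS minus LPS, orange is minus 6-gingerol 10 µM plus LPS. The genes were chosen by their red values, Il6 lies at -0.89 and -0.62, and many intervals reach 0.

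To ask whether the LPS-induced genes shifted together without using the LPS libraries to define them, the class was taken from 6-gingerol 10 µM plus LPS against untreated cells (a log2 fold change of 1 or more that passed an edgeR adjusted p of 0.05). This gave 349 genes, 2.75% of those tested. In 6-gingerol 30 µM plus LPS against LPS their median log2 difference was -0.089 (quartiles -0.228 and 0.022), beside 0.001 (quartiles -0.092 and 0.08) for all genes. Of the 349 genes, 245 (70.2%) had a value below 0, 124 (35.5%) were non-overlapping and lower and 34 (9.7%) were non-overlapping and higher. Over all genes these shares were 49.7%, 15% and 14.7% in that order. Restricted to a mean of at least 5 CPM, 83 of 204 genes (40.7%) were non-overlapping and lower and 11 (5.4%) higher, beside 14.4% each way for all genes at that level. None of the induced genes was called by edgeR. At an unadjusted edgeR p under 0.05, 24 of the 349 were lower and 3 higher. Over all 12705 genes tested 189 (1.49%) had such a p, 112 of them lower.

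The shift was larger for genes that LPS induced more strongly. Genes induced by a log2 of 1 to 2 (204 genes) had a median of -0.044, and 27.5% were non-overlapping and lower. Those induced by 2 to 3 (69 genes) had a median of -0.138 with 37.7% lower. Those induced by 3 or more (76 genes) had a median of -0.236 with 55.3% lower and 3.9% higher. Over all genes 15% were non-overlapping and lower and 14.7% higher. All 4 pairings of a 6-gingerol with an LPS library gave a negative median for the 349 genes, from -0.12 to -0.065, while the median of all genes in these pairings lay between -0.004 and 0.006. For the genes induced by 3 or more the pairings ran from -0.275 to -0.165. Measured above the untreated mean, the median of the 349 genes was 1.60 and 1.68 on the log2 scale in the LPS libraries and 1.54 in each 6-gingerol 30 µM library, so the difference is a small part of the LPS response.

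Genes repressed by LPS by the mirrored criterion (82 genes, 0.645%) had a median of 0.171. Of these, 22 (26.8%) were non-overlapping and higher and 11 (13.4%) lower, beside 14.7% and 15% of all genes. The lower share was thus near that of all genes. Only 11 of the 82 reached a mean of 5 CPM, and 1 of the 4 library pairings gave a median of -0.004, so this group rests mostly on genes with few counts.

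**Figure D3:**
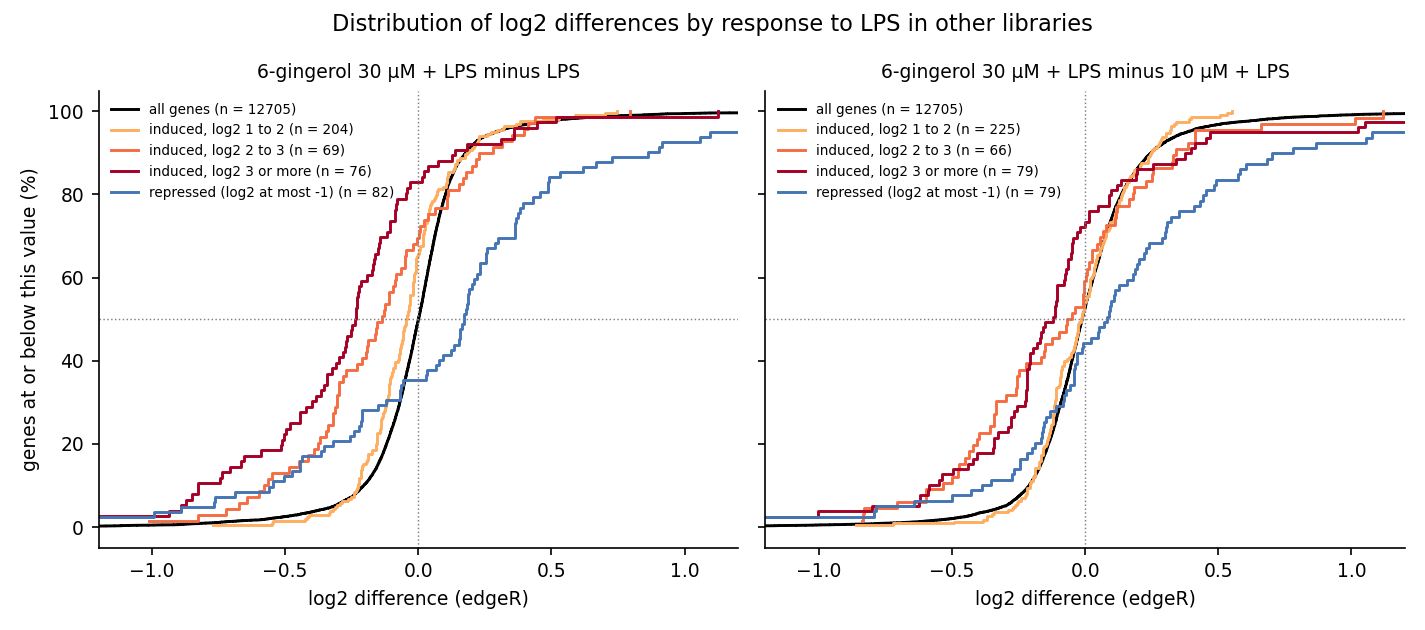
Cumulative share of genes (vertical axis, percent) at or below each log2 difference (horizontal axis) for 6-gingerol 30 µM plus LPS minus LPS (left) and minus 6-gingerol 10 µM plus LPS (right), by response to LPS in libraries other than the baseline. On the left the median moves from 0.001 for all genes to -0.236 for genes induced by a log2 of 3 or more; on the right the genes induced by 3 or more in LPS against untreated cells reach -0.12.

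The 30 µM libraries were also compared with 6-gingerol 10 µM plus LPS, with the LPS-induced class now taken from LPS against untreated cells (370 genes, 2.91%). The 2 comparisons share the 30 µM libraries and are therefore not independent of each other. One gene was called by edgeR (0.00787%), mt-Nd3, and 434 genes had an unadjusted p under 0.05 (3.42%). The induced genes had a median of -0.043, beside -0.011 for all genes, with 24.1% non-overlapping and lower and 14.3% higher, beside 17.1% and 14.9% of all genes. Without the second 10 µM library the median was -0.017 beside -0.010 for all genes, a smaller gap than with both 10 µM libraries. Genes induced by 3 or more had a median of -0.12. The 79 genes repressed by LPS in this definition (0.622%) had a median of 0.083. When libraries were scaled by their totals alone, the median of the 370 genes turned to 0.03 while that of all genes moved to 0.069, so the direction holds only relative to all genes. Il6 was at 174 and 162 CPM with 10 µM, above both 30 µM libraries, and the log2 difference between the doses was -0.62 (SE 0.15, edgeR adjusted p = 0.961). It was called with the compared groups fitted alone (edgeR adjusted p = 0.0119) and without a count filter (edgeR adjusted p = 0.000109). With DESeq2 it was not called (adjusted p = 0.281), so this call too depends on the setting. Ptgs2 (89.0 and 84.2 CPM with 10 µM) differed by -0.34 and Traf1 (43.9 and 35.6 CPM) by -0.34, both non-overlapping. Csf3 overlapped between the doses at 3.17 and 1.75 CPM with 10 µM. Kcnf1 differed by 0.09, against -0.34 from LPS. Between the doses the 14 cytokines had a median of -0.169 (4 non-overlapping and lower, 0 higher), the 12 chemokines -0.186 (2 and 2) and the 26 effectors -0.089 (9 and 1). The 34 interferon-stimulated genes had a median of 0.011, with 4 lower and 6 higher, so they did not lean lower than with 10 µM.

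**Figure D4:**
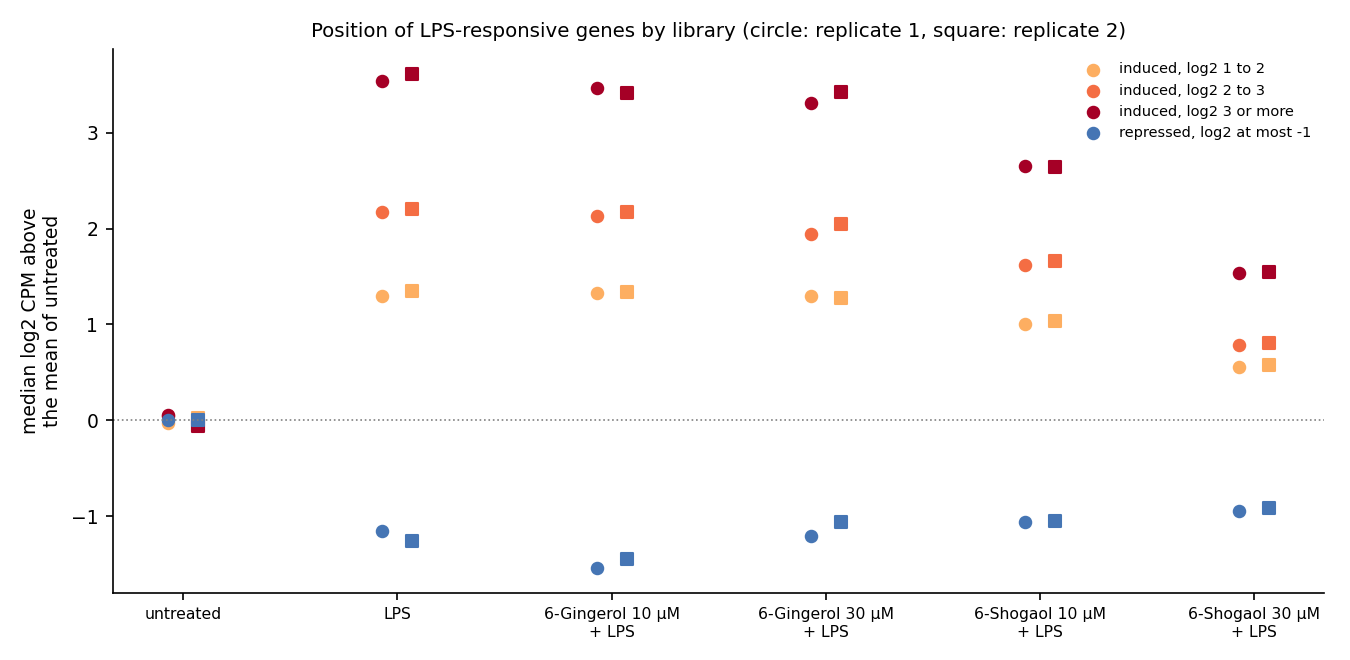
Median log2 CPM above the untreated mean (vertical axis) for the genes induced or repressed in 6-gingerol 10 µM plus LPS, in each of the 12 libraries; that group and the untreated group chose the genes, so only the other groups are a free reading. For genes induced by 3 or more the LPS libraries stand at 3.54 and 3.61 and the 6-gingerol 30 µM libraries at 3.31 and 3.42.

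Upstream components had medians near that of all genes, while their shares of non-overlapping genes differed between lists. In the list of LPS recognition and adaptor genes, 7 of 18 (38.9%) were non-overlapping and lower and 3 (16.7%) higher. Over all genes these shares were 15% and 14.7%. The median of the list was -0.005 and none was called by edgeR. Cd14, the co-receptor, stood at 143.5 and 143.6 CPM with LPS and 111 and 109 CPM after 6-gingerol, a log2 difference of -0.39 (SE 0.12, 95% interval -0.64 to -0.13, edgeR adjusted p = 1.00). Cd14 was not in the LPS-induced class, since untreated cells had 141 and 115 CPM. Ly96, the gene of MD-2, differed by -0.24 and the adaptor gene Tirap by 0.32, and both intervals included 0. Among 19 NF-κB subunits and feedback genes 5 (26.3%) were lower and 3 (15.8%) higher (median -0.039), with Traf1 lowest and Birc3, an apoptosis inhibitor, at -0.19. In the list of interleukin-6, STAT3 and SOCS3 signalling genes 3 of 19 (15.8%) were lower and 4 (21.1%) higher (median -0.01).

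Regulators of mRNA decay lay slightly the other way. None of the 15 genes of AU-rich and stem-loop decay was non-overlapping and lower and 6 (40.0%) were higher, beside 15% and 14.7% of all genes. Their median was 0.064 and none was called by edgeR. Rc3h1, which encodes Roquin-1, a protein that promotes decay of inflammatory mRNAs, was at 38.3 and 35.8 CPM with LPS and at 47.8 and 42.2 CPM after 6-gingerol (log2 difference 0.28, with a 95% interval that just reached 0). Its paralogue Rc3h2 differed by 0.18. Of 25 immediate early and AP-1 genes 11 (44.0%) were lower and 2 (8.0%) higher (median -0.084). Nr4a1, an orphan nuclear receptor, was at 8.72 and 7.76 CPM against 5.80 and 5.72 CPM (log2 difference -0.51), Klf2 differed by -0.24 and Myc by 0.37. With 6-gingerol 10 µM, Nr4a1 was at 5.62 and 6.35 CPM, so the 2 doses overlapped.

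The NRF2 targets, antioxidant genes that electrophiles induce, had a median of 0.058 over 26 genes. Of these, 8 (30.8%) were non-overlapping and higher and 3 (11.5%) lower, beside 14.7% and 15% of all genes. None was called by edgeR. Hmox1, heme oxygenase, was at 542 and 507 CPM with LPS and at 511 and 532 CPM after 6-gingerol, and Gclm, a subunit of the enzyme that limits glutathione synthesis, was at 60.8 and 63.9 CPM against 62.0 and 58.8 CPM. Both overlapped, with intervals of -0.24 to 0.22 and -0.25 to 0.16 on the log2 scale. Among the non-overlapping members, Gclc, the catalytic partner of Gclm, was at 23.1 ± 1.55 CPM with LPS and 25.8 ± 1.15 CPM after 6-gingerol (SD, n = 2, log2 difference 0.16), and Me1 lay higher as given above. The peroxiredoxin gene Prdx1 and the esterase gene Esd lay lower, at -0.17 and -0.19. Nqo1, a quinone reductase named after its values were seen, had the list's highest log2 difference (0.80, 95% interval -0.29 to 1.88), but at 0.24 and 0.33 CPM against 0.62 and 0.40 CPM. The intervals of all 5 included 0. Heat shock chaperones (3 lower and 4 higher of 15), replication genes (3 and 3 of 24), mitosis genes (4 and 1 of 20), glycolysis and hypoxia genes (0 and 1 of 23), LXR and lipid efflux genes (1 and 2 of 12) and microglia and macrophage identity genes (2 and 4 of 20) had medians between -0.035 and 0.067. The cholesterol synthesis genes had a median of -0.085 over 21 genes, with 6 lower and 1 higher.

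Outside the LPS-induced class, mitochondrially encoded mRNAs and mRNAs of ribosomal proteins leaned lower, and none was called by edgeR against LPS. Of 13 mitochondrial mRNAs 7 were non-overlapping and lower than LPS and 1 was higher (median -0.149), and against 6-gingerol 10 µM 9 were lower and 1 higher (median -0.45). Over all genes the shares were 15% lower and 14.7% higher against LPS, and 17.1% and 14.9% against 10 µM. mt-Nd3, a subunit of respiratory complex I, was at 105 and 108.0 CPM in untreated cells, at 62.4 and 70.9 CPM with LPS, at 46.5 and 36.6 CPM after 30 µM and at 98.5 and 73.3 CPM after 10 µM. It was lower with LPS than in untreated cells (log2 difference -0.67, edgeR adjusted p = 0.00422). It was the gene called between the doses (log2 difference -1.05, SE 0.14, edgeR adjusted p = 0.0315), and it differed from LPS by -0.68. Leaving out the first 10 µM library or the second 30 µM library ended that call. mt-Nd4l, another complex I subunit, differed from LPS by -0.38, while mt-Co3, a subunit of cytochrome oxidase, went the other way at 484 and 359 CPM with LPS and 566 and 718 CPM after 30 µM. mt-Co3 turned to -0.10 on the authors' deposited normalized table. Of 36 ribosomal protein genes 10 were lower than LPS and none was higher (median -0.113), Rps7 being lowest at -0.25. Whether these abundant transcripts play a part in the shift of the induced genes was not tested. With fragment length as a covariate, an alternative for these medians chosen after seeing the data, the induced genes had a median of -0.078 against LPS, beside -0.005 for all genes, and Il6 differed by -0.87.

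At a mean of at least 5 CPM, the other genes outside the induced class with the largest non-overlapping differences were mainly predicted genes or pseudogenes, whose reads may be shared with near-identical copies. They were Gm20458, Gm9493, ENSMUSG00000104357 and the cortisone reductase gene Hsd11b1 on the lower side, at -1.16, -0.70, -0.54 and -0.53. On the higher side they were Gm4294, Palm, Gm20721 and Pced1b, at 0.55, 0.52, 0.51 and 0.49. None was called by edgeR.

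**Figure D5:**
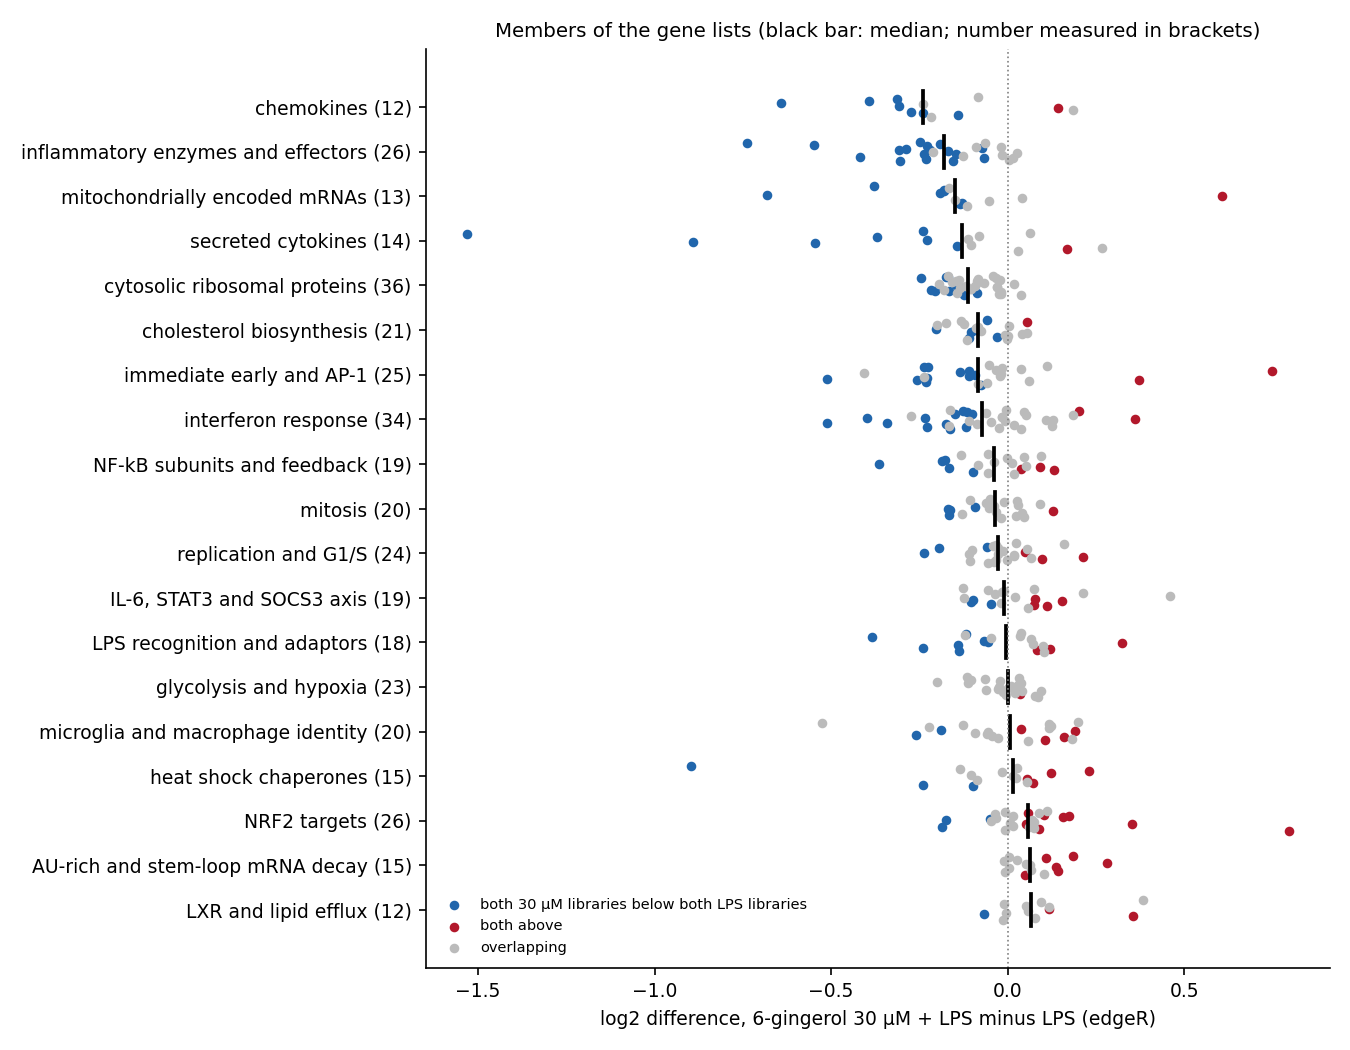
Log2 difference of 6-gingerol 30 µM plus LPS minus LPS (horizontal axis) for each measured member of 19 gene lists; blue and red points are genes whose 2 libraries lie below or above both LPS libraries, grey points overlap, and the black bar is the median. Medians run from -0.24 for chemokines to 0.067 for LXR and lipid efflux genes.

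At the matched dose of 30 µM, 6-shogaol plus LPS differed from 6-gingerol plus LPS at 3171 genes (25%), 1592 higher and 1579 lower, by edgeR. 6-Shogaol has an unsaturated ketone in place of the hydroxy ketone of 6-gingerol. Il6 was at 2.93 and 4.11 CPM with 6-shogaol, a log2 difference of -4.95 (SE 0.21, edgeR adjusted p = 9.00e-10) from 6-gingerol. Of the measured list members 6-shogaol was lower at 11 of 14 cytokines, 9 of 12 chemokines and 21 of 26 inflammatory effectors by the same test. Gclm was higher with 6-shogaol (log2 difference 1.19, edgeR adjusted p = 7.49e-07), while for Hmox1 the difference of -0.27 was not called (95% interval -0.50 to -0.04, edgeR adjusted p = 0.0840).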

How the data were processed

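RNA of 12 BV2 libraries (6 groups of 2) was sequenced as stranded paired-end mRNA libraries, per the labels' protocols. The deposited tables of each library hold RSEM expected counts, TPM and lengths in bases per gene, per the file headers, and 7.03% of the expected counts were not whole. The authors also deposited 1 table of a normalized signal per gene, whose normalization and annotation release are not given in the sources used here. The submitters' processing notes name Trimmomatic 0.39, STAR 2.7.11b, RSEM 1.3.3 and DESeq2 1.44.0 and the build GRCm38, without the role of each. Whether the counting used strand is not given. Symbols and positions came from GENCODE M21 (97.8% of identifiers matched).

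After rounding and filterByExpr, expected counts of all 12 libraries entered 1 TMM-scaled fit with 6 group means in edgeR 4.0.16 (quasi-likelihood, robust, 6 residual degrees of freedom). P-values are 2-sided, and a call is a Benjamini-Hochberg adjusted p under 0.05 over the 12705 genes. Levels are CPM after TMM scaling, intervals are 95% and cover the spread in the fit, and differences are log2. Fragment length came from length minus effective length. The fitting code was tested on simulated data.

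Named genes have a mean of at least 5 CPM over the 4 libraries: the 16 lowest and 6 highest non-overlapping LPS-induced genes, 5 others each way, set inflammatory genes at any level, and up to 2 genes each way per list. One item is not reported here. These genes and lists were chosen with earlier results of these data known. Alternatives used DESeq2 1.42.0 and limma 3.58.1, the latter also on the authors' signal as log2(value + 1). The labels do not say that equal replicate numbers share a culture or day.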

Additional observations from a re-analysis of the deposited data

Results flagged for a closer look

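mt-Nd3 was picked out because the 6-gingerol doses differed from each other by edgeR's test: the log2 difference of 30 µM plus LPS from 10 µM plus LPS was -1.05 (adjusted p = 0.0315), and both 30 µM libraries lay below both 10 µM libraries.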

How the results depend on the processing

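Against LPS, the count of 0 called genes became 27 without a count filter (10 higher, 17 lower), 2 with DESeq2, 5 with the 4 libraries fitted alone (Il6, Csf3, mt-Nd3, Rpl30-ps9 and Gm16568, all lower), 1 without the untreated libraries (Il6) and 0 to 1 when 1 library was left out, the 1 being Gm26827 without LPS replicate 1. It stayed 0 with DESeq2 size factors or library totals, a 5 CPM minimum, limma-voom, the authors' table and fragment length as a covariate. Between the doses the 1 call became 0 on library totals and on the authors' table, 49 without a count filter, 7 with the compared groups alone, and 0 to 1 when 1 library was left out. 6-Shogaol against 6-gingerol gave 1807 to 2157 calls when 1 library was left out. The induced median against LPS was -0.062 on library totals, beside 0.042 for all genes. It was -0.129 (without LPS replicate 1) to -0.066 when 1 library was left out, and -0.212 for genes induced by a log2 of at least 2. Between the doses it was 0.03 on library totals, -0.109 for the stronger class, -0.062 with fragment length as a covariate (added after seeing the data), and -0.071 (without 6-gingerol 30 µM replicate 2) to -0.017 (without 10 µM replicate 2) when 1 library was left out. The cause of these changes was not tested.

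Of 63 named genes, 60 kept their direction in all alternatives run. Many of the 63 were chosen because their groups did not overlap in these libraries or because they were the extremes of a list. Their direction was thus largely set by the choice, and the count is no measure of robustness. mt-Co3 turned to -0.103 on the authors' table. Il1b ran from -0.517 (without 6-gingerol 30 µM replicate 2) to 0.204 (without replicate 1 of that group), and was 0.18 without LPS replicate 2. Hmox1 turned to 0.034 on library totals and 0.006 on the authors' table, and ran from -0.056 (without LPS replicate 2) to 0.041 (without LPS replicate 1), being 0.024 without 6-gingerol 30 µM replicate 1.

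With the replicate number as a block, 0, 1 and 3242 genes were called in the 3 comparisons and the induced medians were -0.088 and -0.047, against 0, 1 and 3171 without it. The block changed no call of the first 2 comparisons. For 6-shogaol against 6-gingerol 3107 calls were shared, 64 were lost and 135 gained. Same-numbered libraries deviated from their group means with correlations across genes of -0.011 (LPS and 6-gingerol 30 µM), 0.246 (the 2 doses) and 0.451 (6-gingerol and 6-shogaol at 30 µM), and of -0.626 to 0.451 over all pairs of groups. The labels tie equal numbers to no shared culture or day, and with 2 libraries a group these correlations cannot settle a pairing, so the numbers were not treated as pairs. With 2 libraries a group, a difference of less than about 0.29 on the log2 scale was within the interval half-width of most genes. For the LPS-induced genes this value was about 0.39.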
